A study of Mus musculus with 32 samples.

Results

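The response of wild-type bone marrow-derived macrophages (BMDMs) to interferon β (IFNβ) was read from 4 of the 32 arrays of the series. These were the 2 arrays of WT (C57BL/6, with the substrain given as C57BL6/J in the study's methods) BMDMs that received IFNβ and the 2 arrays of WT BMDMs left without treatment, chosen by their genotype and treatment labels. Total RNA was taken 6 h after treatment and measured on 1-colour Agilent expression arrays. All the BMDMs, WT and mutant, treated and untreated, were grown from mouse bone marrow in macrophage colony-stimulating factor (M-CSF). The ages of the mice, and whether marrow was pooled, were not given in the sources used here. IFNβ was the only agent added to the treated WT cells. Its dose is given as 1000 U/mL in the sample labels, 100 U/mL in the legends of the study and 10 ng/mL in its methods. The 2 untreated and 2 IFNβ-treated arrays of Ifnar1-/- BMDMs, which lack a subunit of the IFNβ receptor, served as the receptor-null control, and the other arrays of the series held LPS, zVAD and Nec1 treatments that entered only the common estimate of the spread. Nothing in the labels says that 2 arrays of a group came from separate mice or cultures, so the p-values measure the spread between these arrays, which may be technical.

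IFNβ is a type I interferon, and it binds a receptor made of IFNAR1 and IFNAR2. The receptor-bound kinases JAK1 and TYK2 phosphorylate STAT proteins, among them STAT2, which join IRF9 in the complex ISGF3 and bind the interferon-stimulated response element (ISRE) in the promoters of interferon-stimulated genes. In macrophages these genes encode antiviral effectors, sensors of foreign nucleic acid, antigen-presentation proteins and chemokines, as well as inhibitors that shut the pathway off again.

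IFNβ changed the expression of a large part of the measured genes in WT BMDMs. Of 16025 genes tested with limma, 2167 (13.5%) rose and 3613 (22.5%) fell at an adjusted p under 0.05. A total of 1625 genes rose and 2187 fell by at least 2-fold. The large changes were mostly rises, since 178 genes rose and 25 fell by at least 16-fold. The change had the same direction within both slides for 2162 of the 2167 genes that rose and for 3608 of the 3613 that fell. The balance between rises and falls depended on the scaling of the arrays. Across all genes, the log2 fold change had a median of -0.18 after quantile normalization and of -0.02 when each array was instead shifted to a common 75th percentile. Under that shift 2435 genes rose and 2490 fell, so that rises made up 49.4% of the calls and not 37.5%.

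The arrays differed in signal. Between 54.9% and 73.1% of the probes were well above background on the 4 WT arrays, and the 2 IFNβ arrays (64.1% and 54.9%) lay below the 2 untreated arrays (69.6% and 73.1%). The same order held in Ifnar1-/- BMDMs, where the untreated arrays had 61.6% and 57.2% and the IFNβ arrays 47.9% and 52.6%. No probe was saturated. Each slide held 1 genotype and 1 replicate number, with every treatment at the same position on each slide. Slide position and treatment therefore cannot be told apart, and neither can slide and genotype when levels are compared between genotypes. In RNA from whole cultures, fewer cells of a type and less RNA per cell cannot be told apart either. All values below are log2 intensities after quantile normalization unless another scale is named, and the first and second value of each group come from replicates 1 and 2.

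The largest rise was that of Ccl12, which encodes a CC chemokine that attracts monocytes. Ccl12 read 5.50 and 5.64 on the untreated arrays and 15.97 and 15.16 on the IFNβ arrays, a 1022-fold increase (log2 fold change 10.00, standard error 0.95, adjusted p = 2.13e-07). The log2 fold change of Ccl12 was 8.52 with normexp background correction. Its probe lies at chr11:81916764-81916823 of the mouse build mm9. Ccl7 and Ccl8, which encode monocyte-attracting chemokines of the same family, rose with it. Ccl7 read 7.05 and 7.22 on the untreated arrays and 15.89 and 14.41 on the IFNβ arrays, and Ccl8 read 6.61 and 7.18 on the untreated arrays and 15.38 and 14.56 on the IFNβ arrays. For all 3 genes the treated and untreated arrays did not overlap, but the genes were picked for the size of their rise. Cxcl9 encodes a CXCR3 ligand that draws activated T cells, and it read 6.96 and 6.72 on the untreated arrays and 15.81 and 15.54 on the IFNβ arrays (log2 fold change 8.83, standard error 0.68, adjusted p = 1.83e-08), with its probe at chr5:92752796-92752855 (mm9).

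The other genes among the 12 largest rises came from several functional groups. Il6, which encodes an acute-phase cytokine, read 3.39 and 3.58 on the untreated arrays and 12.65 and 12.12 on the IFNβ arrays (log2 fold change 8.90, standard error 1.60, adjusted p = 0.000266). Only 1 of the 2 untreated arrays detected Il6 above background, and with normexp background correction its log2 fold change was 5.99. That correction gave smaller changes for 107 of the 130 named genes called in WT, by over 1.5 times for 39 of them, among them Serpinb2 (4.18) and Ifnb1 (2.87) besides Il6. Serpina3g and Serpina3f encode serine protease inhibitors of the antichymotrypsin family, and their log2 fold changes were 9.33 and 8.30. The 2 belong to a cluster of closely related genes, and cross-hybridization between their probes was not tested. Gbp4, a guanylate-binding GTPase, rose by 8.56 on the log2 scale, and Cd69, a lectin-like marker of early activation, by 8.36. Cd69 read 7.23 and 7.27 on the untreated arrays and 15.52 and 15.70 on the IFNβ arrays, so that its replicates lay closer to each other than to the other group. Ch25h, which makes 25-hydroxycholesterol, had a log2 fold change of 7.97. Ddx4, known as a germ cell RNA helicase, and Scimp, an adaptor of major histocompatibility complex (MHC) class II signalling, had log2 fold changes of 7.91 and 7.81. Each of these rises had an adjusted p between 1.83e-08 for Cxcl9 and 0.000266 for Il6, and none was lost when any single array was left out.

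**Figure D1:**
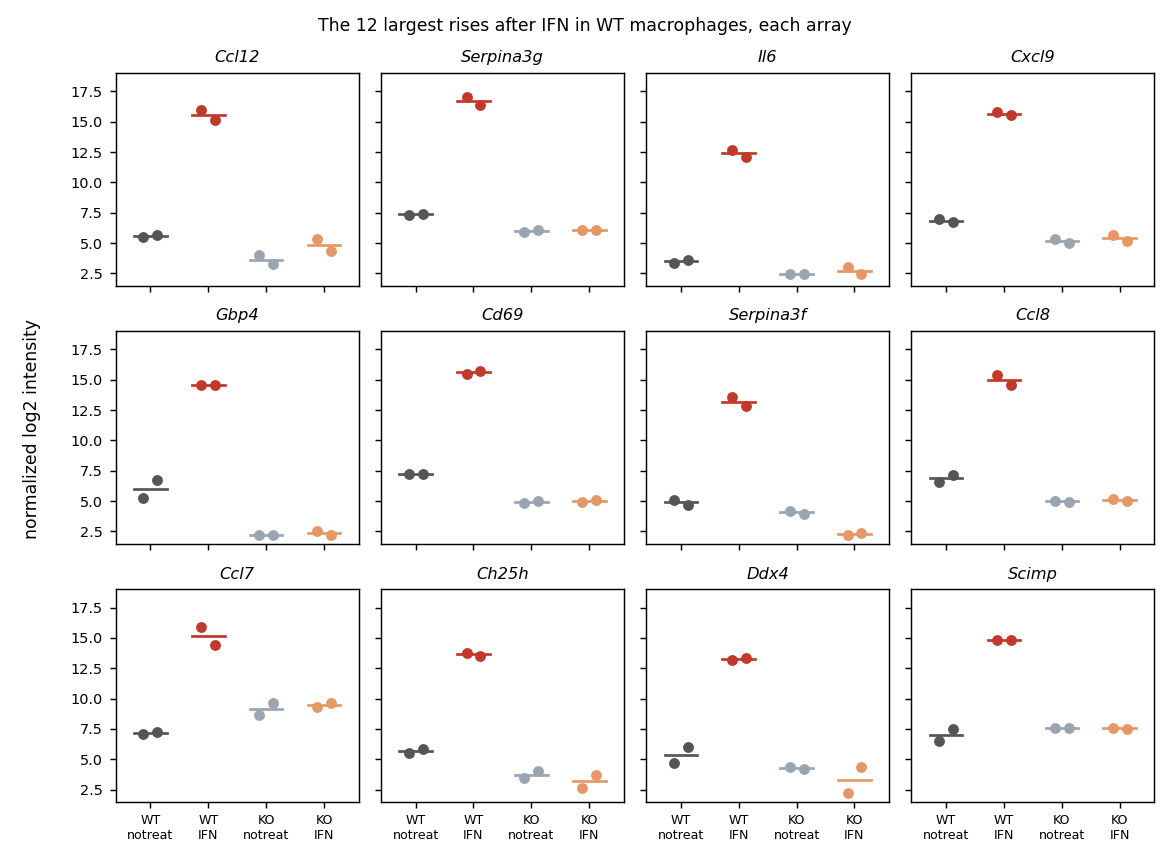
The 12 genes with the largest rises in WT BMDMs, as log2 intensity on each of the 4 WT and 4 Ifnar1-/- arrays, with points for arrays and short lines for group means. For Ccl12 the IFNβ-treated WT arrays lie 10.00 log2 units above the untreated ones on average, while for each of the 12 genes the treated WT arrays are above every Ifnar1-/- array.

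The signalling components themselves gave a mixed picture. Of the 12 genes of the receptor and ISGF3 group, 4 rose and 0 fell (33.3% higher and 0% lower against 13.5% and 22.5% of all genes). Stat2 read 13.63 and 13.56 on the untreated arrays and 16.28 and 16.77 on the IFNβ arrays (log2 fold change 2.92, standard error 0.37, adjusted p = 6.56e-06). Tyk2 (1.69) and Stat3 (1.64) rose as well. Irf9, the DNA-binding subunit of ISGF3, read 13.83 and 13.92 on the untreated arrays and 14.16 and 14.71 on the IFNβ arrays and did not pass the test (log2 fold change 0.56, adjusted p = 0.0844). It did pass with the slide as a block (adjusted p = 0.00443), under 75th percentile scaling (adjusted p = 0.0183) and without IFNβ array 1 (adjusted p = 0.0401). The receptor genes were not called. Ifnar1 was 2.83-fold lower (adjusted p = 0.0834), with 2 of its 3 probes of that sign, and Ifnar2 had a log2 fold change of -0.52 (adjusted p = 0.266). With the spread taken from the 8 arrays of the WT and Ifnar1-/- groups alone, Ifnar1 had an adjusted p of 0.00131 and Ifnar2 one of 0.0422. Under 75th percentile scaling the Ifnar2 value was 0.029 and no longer negative.

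The inhibitors of interferon signalling rose beside the signalling genes. Among 10 feedback inhibitors 7 rose and 1 (0 under 75th percentile scaling, 0 without untreated array 2, 0 without IFNβ array 1) fell, with a median log2 fold change of 2.69 against -0.18 over all genes. By share, 70% were higher and 10% lower, against 13.5% and 22.5% of all genes. Socs1, which blocks Janus kinases, read 8.25 and 8.55 on the untreated arrays and 15.36 and 14.27 on the IFNβ arrays (log2 fold change 6.41, standard error 0.80, adjusted p = 5.58e-06). Usp18 removes ISG15 from proteins and also binds IFNAR2 to dampen the receptor. It read 12.12 and 12.46 on the untreated arrays and 16.95 and 16.90 on the IFNβ arrays (log2 fold change 4.64, standard error 0.39, adjusted p = 5.01e-08). Socs2 had a log2 fold change of 3.93, and Socs3 one of 3.52 with an adjusted p of 0.0454. The Socs3 call was lost when any 1 of the 8 WT and Ifnar1-/- arrays was left out, with an adjusted p between 0.0534 and 0.154 (the highest without untreated array 1 and without IFNβ array 1). The member that fell was Ptpn11, which encodes the phosphatase SHP2 (-0.44).

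Interferon regulatory factors (IRFs) are the transcription factors that carry the response forward. Of 9 measured, 4 rose and 2 (1 under 75th percentile scaling, 1 without untreated array 2, 1 without IFNβ array 1, 1 without IFNβ array 2) fell. By share, 44.4% rose, against 13.5% of all genes, while 22.2% fell, near the 22.5% of all genes. Irf7, the factor needed for amplified interferon production, read 12.14 and 12.58 on the untreated arrays and 16.45 and 16.70 on the IFNβ arrays (log2 fold change 4.21, standard error 0.42, adjusted p = 4.18e-07). Irf1 rose by 2.07, Irf2 by 1.98 and Irf5 by 1.24 on the log2 scale. Irf3 (-0.82) and Irf4 (-1.84) fell. The adjusted p of Irf4 was 0.0335, and 0.211 without untreated array 2, 0.097 without IFNβ array 1 and 0.118 without IFNβ array 2. Irf8, a factor of macrophage identity, had a log2 fold change of -0.01 and was not called.

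Most antiviral effectors rose. Of 47 genes, 40 rose and 0 (1 with the slide as a block) fell, a share of 85.1% against 13.5% of all genes, and the median log2 fold change was 2.64. Isg15, which encodes a ubiquitin-like modifier, read 15.33 and 15.02 on the untreated arrays and 18.51 and 18.48 on the IFNβ arrays (log2 fold change 3.32, standard error 0.79, adjusted p = 0.00315), with its probe at chr4:155573649-155573708 (mm9). Rsad2, which encodes the antiviral enzyme viperin, read 11.87 and 11.96 on the untreated arrays and 18.14 and 17.91 on the IFNβ arrays (log2 fold change 6.11, standard error 0.75, adjusted p = 4.33e-06). Ifit1, which binds foreign 5′ RNA ends, read 11.74 and 11.39 on the untreated arrays and 16.70 and 16.39 on the IFNβ arrays (log2 fold change 4.98, standard error 1.21, adjusted p = 0.00343). The smallest of these 3 rises was that of Isg15, at 9.98-fold, and in each case both IFNβ arrays lay above both untreated arrays. Mx1, a dynamin-like GTPase (5.69), Cmpk2, a nucleotide kinase encoded next to Rsad2 (6.17), and Slfn4, a member of the Schlafen family (7.41), rose too. Among the 7 effectors that were not called were Oas1a (1.84), Rtp4 (1.44), Ifitm2 (0.15), Slfn5 (-0.18), Apobec1 (-0.36) and Ifi27 (-0.52).

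Promoter windows are shown for some of the genes that rose and held the ISRE core, since this element is the one ISGF3 binds. The core was searched as GAAANNGAAA on both strands, 250 bases before to 50 after each RefSeq transcription start (GRCm38.p6). Each line gives 30 bases on the strand of the gene, 5′ to 3′, with the core or overlapping cores in capitals. Isg15, Socs1, Cxcl10 and Rsad2 lie on the minus strand of the genome, and Ifit1 and Stat2 on the plus strand. The sequences are those of the RefSeq promoter table, and distances run from the first base of the core to the start site.
Isg15: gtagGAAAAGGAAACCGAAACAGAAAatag
Ifit1: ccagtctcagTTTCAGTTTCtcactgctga
Ifit1: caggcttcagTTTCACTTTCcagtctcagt
Rsad2: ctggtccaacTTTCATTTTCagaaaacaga
Socs1: cttgccgGAAAGAGAAACCGAAAgcggggg
Cxcl10: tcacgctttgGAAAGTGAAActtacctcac
Stat2: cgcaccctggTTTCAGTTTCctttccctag
The Isg15 window (chr4:156200871-156200900) holds 3 overlapping cores that begin 78 bases upstream of the start, and the Socs1 window (chr16:10785597-10785626) holds 2 that begin 83 bases upstream. Ifit1 has cores 85 bases (chr19:34640794-34640823) and 104 bases (chr19:34640775-34640804) upstream. The Rsad2 core (chr12:26456553-26456582) is 120 bases, the Cxcl10 core (chr5:92349083-92349112) 213 bases and the Stat2 core (chr10:128270266-128270295) 222 bases upstream. A match of letters is a description of the window, not evidence of a bound site, and the absence of a match says only that these letters are not in the window.

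The share of promoters with the ISRE core went up with the size of the rise. It was 23.5% (36 of 153 windows) for genes that rose at least 16-fold, 9.26% for 4-fold to 16-fold, 4.76% for 2-fold to 4-fold and 3.51% for smaller rises. Genes that fell had the core in 2.21% of windows, genes not called in 2.96%, and all 32851 windows of the table in 3.44%. The gamma-activated site, to which STAT dimers bind, was searched as TTCNNNGAA and was in 15.7% of the windows of the 16-fold class, against 7.44% for genes not called and 8.3% of all windows. The kappa-B core, searched as GGGNNTTTCC and bound by NF-κB, was in 7.19% of the windows of that class, against 1.62% for genes not called and 1.63% of all windows. The kappa-B window of Il6 (chr5:30013060-30013089, 44 bases upstream on the plus strand) is shown because Il6 was among the largest rises and its window held no ISRE core.
Il6: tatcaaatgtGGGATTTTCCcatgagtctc
Windows were matched for 12051 of the 16025 genes by symbol, and for 102 of the 141 genes named by rule. Of the 60 named genes that rose and had a window, 12 held the ISRE core. Besides the genes shown, these were Bst2, Fcgr4, Gbp5, Ifi211, Ifih1 and Irf2. Mapk14, which fell, and Ripk1, which was not called, held it too.

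**Figure D2:**
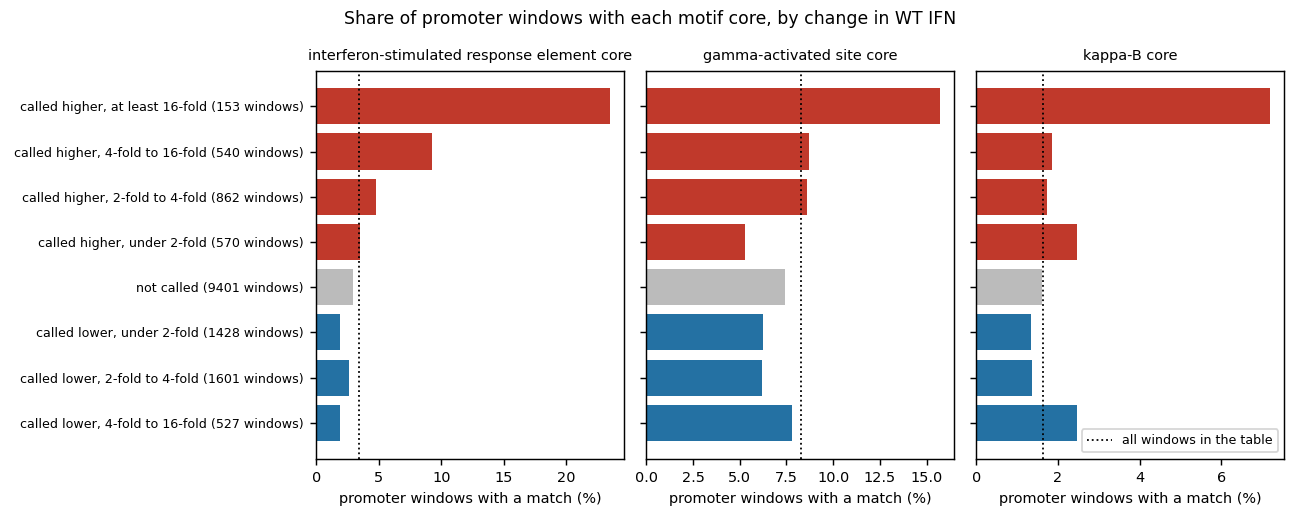
Share of RefSeq promoter windows (percent, 300 bases each) that hold the ISRE, gamma-activated site or kappa-B core, by class of log2 change in WT BMDMs. The ISRE share is highest at 23.5% among genes that rose at least 16-fold and 2.21% among genes that fell.

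The genes of ISG15 attachment and removal rose. All 6 measured genes of this group, Isg15 itself and Usp18 among them, rose (100% against 13.5% of all genes), with a median of 3.27. Herc6, the ligase of the mouse system, read 9.45 and 9.65 on the untreated arrays and 14.47 and 14.66 on the IFNβ arrays (log2 fold change 5.02, standard error 0.47, adjusted p = 1.92e-07). Ube2l6, the conjugating enzyme (3.22), and Uba7, the activating enzyme (2.22), rose with it, while Trim25, a further ligase, had the smallest rise (0.78).

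Guanylate-binding proteins and immunity-related GTPases, which attack the vacuoles of intracellular pathogens, formed the group with the highest median among the 26 lists. All 17 measured members rose (100% against 13.5% of all genes), with a median log2 fold change of 4.93. All 17 also had a more positive response in WT than in Ifnar1-/- BMDMs, against 8.47% of all genes. That test uses the same WT arrays. Gbp4 read 5.26 and 6.78 on the untreated arrays and 14.57 and 14.58 on the IFNβ arrays (log2 fold change 8.56, standard error 0.72, adjusted p = 5.30e-08). Gbp11 had a log2 fold change of 6.95, Gbp5 of 6.22 and Iigp1 of 6.07. The members share long stretches of sequence, and signal from near-identical family members cannot be split on these probes.

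Nucleic acid sensors were mostly higher. Of 20 genes, 13 rose and 1 fell (65% higher and 5% lower against 13.5% and 22.5% of all genes), with a median of 1.97. Tlr3, the endosomal sensor of double-stranded RNA, read 7.50 and 8.07 on the untreated arrays and 12.56 and 12.46 on the IFNβ arrays (log2 fold change 4.73, standard error 0.44, adjusted p = 1.87e-07). Ifih1, which encodes the cytosolic RNA sensor MDA5, rose by 3.94, and Zbp1, a sensor of Z-form nucleic acid, by 3.83 on the log2 scale. Ifi211 of the HIN-200 family rose by 4.08. The sensor gene that fell encodes MAVS, the adaptor downstream of MDA5. Mavs read 12.87 and 13.14 on the untreated arrays and 11.04 and 11.24 on the IFNβ arrays (log2 fold change -1.86, standard error 0.36, adjusted p = 0.000456). The Toll-like receptors of this list other than Tlr3 were not called, with 0.10 for Tlr7, 0.50 for Tlr8 and -0.20 for Tlr9. Tlr11 and Tlr12 were not on the list and did not pass the filter on dim probes. Tlr11 read 3.54 and 5.04 on the untreated arrays and 7.79 and 9.20 on the IFNβ arrays. Tlr12 read 4.44 and 4.79 on the untreated arrays and 10.54 and 10.13 on the IFNβ arrays.

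Antigen presentation by MHC class I rose in its processing genes. Of 20 genes, 13 rose and 1 (0 under 75th percentile scaling, 0 without untreated array 1) fell, with a median of 1.30. By share, 65% were higher and 5% lower, against 13.5% and 22.5% of all genes. Tap1, a subunit of the peptide transporter, read 10.26 and 10.68 on the untreated arrays and 14.16 and 13.96 on the IFNβ arrays (log2 fold change 3.59, standard error 0.27, adjusted p = 1.74e-08), and Nlrc5, the transactivator of class I genes, rose as well (log2 fold change 3.57, standard error 0.29, adjusted p = 3.40e-08). The tapasin-like Tapbpl (2.58) and the non-classical H2-T10 (3.09) rose too. The classical heavy chains and the light chain did not pass the test. H2-K1 had a log2 fold change of 0.21 (95% interval -0.15 to 0.57), H2-D1 of -0.22 (95% interval -0.60 to 0.16) and B2m of 0.05 (95% interval -0.29 to 0.39). B2m read 17.80 and 17.65 on the untreated arrays and 17.80 and 17.75 on the IFNβ arrays, and none of these probes was saturated. The gene that fell was Canx, which encodes the chaperone calnexin (-0.74).

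Of 16 genes of MHC class II and costimulation, 6 rose and 1 (5 with the slide as a block, 4 without untreated array 1, 2 without IFNβ array 2) fell, or 37.5% higher and 6.25% lower against 13.5% and 22.5% of all genes. Apart from H2-Oa, a class II chain, the genes that rose encode costimulators and checkpoint ligands. Cd40 read 10.50 and 10.93 on the untreated arrays and 15.73 and 16.03 on the IFNβ arrays (log2 fold change 5.16, standard error 1.16, adjusted p = 0.00180) and Cd86 9.52 and 10.03 on the untreated arrays and 13.91 and 14.32 on the IFNβ arrays (log2 fold change 4.34, standard error 0.35, adjusted p = 3.46e-08). Cd274, which encodes PD-L1, had a log2 fold change of 4.70, with 1 usable IFNβ array because the spot on the other was an outlier. Its spread therefore came from the other groups alone. Tnfsf9 (3.32), Pdcd1lg2, which encodes PD-L2 (2.23), and H2-Oa (1.75) rose. Cd80, the partner of Cd86, was the costimulator that fell, at 13.91 and 13.68 on the untreated arrays and 11.97 and 11.99 on the IFNβ arrays (log2 fold change -1.81, standard error 0.26, adjusted p = 3.18e-05).

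Among 21 chemokines 10 rose and 0 (3 with the slide as a block) fell, or 47.6% higher and 0% lower against 13.5% and 22.5% of all genes. The rises include Ccl12, Ccl8, Ccl7 and Cxcl9, described above. Cxcl10, a CXCR3 ligand like Cxcl9, read 13.33 and 13.33 on the untreated arrays and 18.15 and 17.91 on the IFNβ arrays (log2 fold change 4.71, standard error 1.03, adjusted p = 0.00151). Ccl5 had a log2 fold change of 3.09 (adjusted p = 0.0155), and its adjusted p was 0.178 without untreated array 2, 0.0519 without IFNβ array 1 and 0.0757 without IFNβ array 2. The neutrophil attractant Cxcl1 read 7.57 and 7.93 on the untreated arrays and 6.73 and 9.32 on the IFNβ arrays and was not called (log2 fold change 0.27, adjusted p = 0.916), and its value was -1.02 without IFNβ array 2.

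Cytokine and growth factor genes rose in 12 of 20 cases and fell in 2 (0 under 75th percentile scaling, 1 without untreated array 1, 1 without untreated array 2). By share, 60% were higher and 10% lower, against 13.5% and 22.5% of all genes. After Il6, the largest changes were those of Tnfsf10, which encodes the death ligand TRAIL (6.88), of Csf1, which encodes M-CSF (5.57), and of Il1rn, the antagonist of interleukin 1 (5.54). Tnfsf10 read 7.52 and 8.26 on the untreated arrays and 14.96 and 14.59 on the IFNβ arrays (log2 fold change 6.88, standard error 0.66, adjusted p = 2.25e-07). Il10, an anti-inflammatory cytokine, rose as well (log2 fold change 5.49, standard error 0.75, adjusted p = 1.53e-05). The gene of IFNβ itself, Ifnb1, read 4.23 and 5.39 on the untreated arrays and 9.33 and 9.79 on the IFNβ arrays (log2 fold change 4.75, standard error 1.02, adjusted p = 0.00122). Tnf read 10.48 and 10.24 on the untreated arrays and 13.87 and 14.46 on the IFNβ arrays (log2 fold change 3.81, standard error 1.12, adjusted p = 0.0119), and its adjusted p was 0.0643 without untreated array 2 and 0.0696 without IFNβ array 2. Il1b read 10.10 and 11.01 on the untreated arrays and 11.91 and 13.75 on the IFNβ arrays and was not called (log2 fold change 2.27, adjusted p = 0.362). With the spread from the 8 arrays of the WT and Ifnar1-/- groups alone its adjusted p was 0.0315. The 2 genes that fell were Tgfb1 (-0.90) and Igf1 (-0.93).

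Genes commonly induced through Toll-like receptors and NF-κB responded in part. Of 29 such genes, 9 (5 without untreated array 2, 5 without IFNβ array 2) rose and 0 (1 without IFNβ array 2) fell, with a median of 1.31. By share, 31% were higher and 0% lower, against 13.5% and 22.5% of all genes. Ptgs2, which encodes the inducible cyclooxygenase COX-2, read 4.09 and 5.45 on the untreated arrays and 12.04 and 12.72 on the IFNβ arrays (log2 fold change 7.61, standard error 1.44, adjusted p = 0.000418). Serpinb2, an inhibitor of plasminogen activators, had a log2 fold change of 6.75, with 1 of its 2 untreated arrays above background. Acod1 makes the metabolite itaconate, and it had a log2 fold change of 5.77 (adjusted p = 0.0102, and 0.0914 without untreated array 2). Nfkbia, the inhibitor of NF-κB that NF-κB itself induces, read 15.52 and 15.62 on the untreated arrays and 16.18 and 16.99 on the IFNβ arrays and was not called (log2 fold change 1.02, adjusted p = 0.0953). Under 75th percentile scaling Nfkbia passed the test (1.64, adjusted p = 0.00745). The count of this list also depended on which arrays gave the spread, with 20 genes higher when only the 8 arrays of the WT and Ifnar1-/- groups were fitted.

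Immediate early genes rose in 8 of 19 cases and fell in 0 (1 without IFNβ array 2). By share, 42.1% were higher and 0% lower, against 13.5% and 22.5% of all genes. The phosphatase genes Dusp2 (7.99-fold) and Dusp1 (4.80-fold), which restrain MAP kinases, and Jun (4.12-fold) rose. Dusp5 rose by 2.02 on the log2 scale (adjusted p = 0.0105, and 0.0664 without untreated array 1 and 0.129 without IFNβ array 2), with 1 untreated array above background. With normexp background correction its value was 0.45 (adjusted p = 0.194), and it was 0.90 in the normalized table as deposited (adjusted p = 0.0667). AU-rich elements set the stability of cytokine mRNAs. Of 14 genes of proteins that bind them, of their kinases and of deadenylase subunits, 2 rose and 3 (0 under 75th percentile scaling, 1 without untreated array 2) fell, shares near the background (14.3% higher and 21.4% lower against 13.5% and 22.5% of all genes). Zfp36, which encodes the mRNA-destabilizing protein tristetraprolin, read 10.42 and 10.39 on the untreated arrays and 12.61 and 12.45 on the IFNβ arrays (log2 fold change 2.12, standard error 0.55, adjusted p = 0.00565). Hnrnpd rose (1.30), while Khsrp (-1.28), Mapk14, which encodes p38α (-1.35), and Tial1 (-0.79) fell. The adjusted p of Khsrp was 0.0416, and 0.402 without untreated array 2 and 0.276 without IFNβ array 2, and the 2 probes of Khsrp had opposite signs. For Mapk14 it was 0.0124, and 0.0765 without untreated array 2 and 0.191 without IFNβ array 1.

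The cell death genes that were called rose, and 13 of 30 were not called. Of the 30 genes, 17 rose and 0 (1 with the slide as a block) fell, with a median of 1.22. By share, 56.7% were higher and 0% lower, against 13.5% and 22.5% of all genes. Mlkl, which encodes the pore-forming executor of necroptosis, read 11.02 and 10.41 on the untreated arrays and 14.80 and 14.50 on the IFNβ arrays (log2 fold change 3.94, standard error 0.27, adjusted p = 4.99e-09), with its probe at chr8:113835700-113835759 (mm9). Zbp1, which can engage RIPK3, read 12.89 and 12.77 on the untreated arrays and 16.64 and 16.67 on the IFNβ arrays (log2 fold change 3.83, standard error 0.55, adjusted p = 2.56e-05). Casp4 encodes the mouse caspase-11 of the non-canonical inflammasome, and it rose by 3.20. Xaf1 rose by 3.41. The kinase genes of the necrosome were not called. Ripk3 read 11.21 and 11.34 on the untreated arrays and 12.23 and 11.72 on the IFNβ arrays (log2 fold change 0.70, adjusted p = 0.0603) and Ripk1 read 12.13 and 11.87 on the untreated arrays and 12.39 and 12.30 on the IFNβ arrays (log2 fold change 0.34, adjusted p = 0.0998). Both passed with the slide as a block, Ripk3 at an adjusted p of 0.0450 and Ripk1 at 0.0308. Ripk3 also passed with normexp background correction (adjusted p = 0.0402) and in the normalized values as deposited (adjusted p = 0.0477). It passed too with the spread from the 8 arrays of the WT and Ifnar1-/- groups alone (adjusted p = 0.0454). Without IFNβ array 2 the log2 fold change of Ripk3 was 0.95.

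Among genes of arginine, tryptophan and nicotinamide metabolism 8 of 12 rose and 0 fell (66.7% higher and 0% lower against 13.5% and 22.5% of all genes). Nos2, the inducible nitric oxide synthase, read 8.17 and 7.87 on the untreated arrays and 12.87 and 12.78 on the IFNβ arrays (log2 fold change 4.80, standard error 0.56, adjusted p = 2.72e-06). Gch1, the first enzyme of the synthesis of its cofactor tetrahydrobiopterin, rose by 3.48, and Kynu, which acts in tryptophan breakdown, by 3.39. Arg1 competes with nitric oxide synthase for arginine, and it read 4.03 and 3.20 on the untreated arrays and 8.61 and 6.45 on the IFNβ arrays (log2 fold change 3.92, standard error 1.09, adjusted p = 0.00867). Its adjusted p was 0.0706 without untreated array 2 and 0.122 without IFNβ array 1 and 0.0674 in the deposited table, and 1 of its untreated arrays was above background.

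Of 25 genes of cholesterol synthesis and uptake, 3 (1 without untreated array 2, 1 without IFNβ array 1) rose and 5 (8 with the slide as a block, 3 without untreated array 1, 3 without IFNβ array 2) fell. These shares, 12% higher and 20% lower against 13.5% and 22.5% of all genes, lay near the background. Ch25h read 5.49 and 5.87 on the untreated arrays and 13.79 and 13.51 on the IFNβ arrays (log2 fold change 7.97, standard error 0.82, adjusted p = 5.95e-07). Mvd, an enzyme of the mevalonate pathway, read 11.43 and 10.68 on the untreated arrays and 8.57 and 8.46 on the IFNβ arrays (log2 fold change -2.54, standard error 0.38, adjusted p = 4.54e-05). Stard4 (-1.81), Dhcr7 (-1.71) and Mvk (-1.03) fell too. Among 14 genes of sterol efflux and transport, of the sterol-sensing receptor LXR and of its targets, 0 (2 under 75th percentile scaling, 2 with the slide as a block) rose and 5 (3 without untreated array 1, 3 without IFNβ array 2) fell (0% higher and 35.7% lower against 13.5% and 22.5% of all genes). Scd2, a fatty acid desaturase, read 13.25 and 12.28 on the untreated arrays and 9.02 and 8.48 on the IFNβ arrays (log2 fold change -4.01, standard error 0.47, adjusted p = 2.80e-06). Fasn (-1.94), the cholesterol exporter Abca1 (-1.81), Scd1 (-1.20) and Lpcat3 (-0.95) fell. Abca1 had an adjusted p of 0.14 without IFNβ array 1, and Scd1 had 0.178 without untreated array 1 and 0.118 without IFNβ array 2. Under 75th percentile scaling the adjusted p of Scd1 was 0.0544.

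Of 38 genes of the respiratory chain and the tricarboxylic acid cycle, 18 (2 under 75th percentile scaling, 7 without IFNβ array 2) fell and 1 (3 under 75th percentile scaling, 2 with the slide as a block) rose, or 2.63% higher and 47.4% lower against 13.5% and 22.5% of all genes. The median log2 fold change was -0.46, and 0.07 under 75th percentile scaling. Under that scaling 2 of these 38 genes fell, beside 2490 of all 16025. Idh1, the cytosolic isocitrate dehydrogenase, read 12.29 and 11.94 on the untreated arrays and 9.58 and 8.90 on the IFNβ arrays (log2 fold change -2.87, standard error 0.49, adjusted p = 0.000165). Its mitochondrial counterpart Idh2 fell too (log2 fold change -1.25), with an adjusted p of 0.00560, and 0.0611 without IFNβ array 2. Mdh1 (-0.84) and Sdha (-0.71) fell, but under 75th percentile scaling their values were -0.31, adjusted p = 0.136 for Mdh1 and -0.12, adjusted p = 0.652 for Sdha. The gene that rose was Cycs, which encodes cytochrome c and read 13.86 and 13.73 on the untreated arrays and 16.34 and 16.63 on the IFNβ arrays (log2 fold change 2.69, standard error 0.23, adjusted p = 7.70e-08). In glycolysis, 4 of 19 genes rose and 2 (0 under 75th percentile scaling, 4 with the slide as a block, 1 without untreated array 1, 0 without untreated array 2, 0 without IFNβ array 2) fell (21.1% higher and 10.5% lower against 13.5% and 22.5% of all genes). Pfkfb3 (2.57) and Pfkp (2.29), which drive the phosphofructokinase step, Hk3 (1.85) and the regulator Hif1a (1.67) rose, while Aldoa (-0.59) and Eno1 (-0.66) fell.

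Genes of lysosomes and autophagy fell in 10 (4 under 75th percentile scaling, 6 without untreated array 1, 6 without IFNβ array 1) of 28 cases and rose in 1 (2 with the slide as a block). By share, 3.57% were higher and 35.7% lower, against 13.5% and 22.5% of all genes. Under 75th percentile scaling, 4 of these 28 genes fell, beside 2490 of all 16025. Gabarapl1, an autophagosome protein of the ATG8 family, read 16.54 and 16.54 on the untreated arrays and 14.26 and 14.03 on the IFNβ arrays (log2 fold change -2.39, standard error 0.19, adjusted p = 2.40e-08). Ulk1, the kinase that starts autophagy, read 14.30 and 14.37 on the untreated arrays and 11.59 and 12.34 on the IFNβ arrays (log2 fold change -2.37, standard error 0.35, adjusted p = 3.51e-05). Atg5 (-1.59) and Atg7 (-1.13), which act in ATG8 lipidation, fell as well, and the lysosomal membrane gene Lamp2 rose (0.83).

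Cell cycle genes fell more often than they rose. Of 40 genes, 17 (10 without untreated array 1) fell and 4 rose, 42.5% lower against 22.5% of all genes, and the median was -0.90. Cdc20, an activator of the anaphase-promoting complex, read 11.56 and 10.21 on the untreated arrays and 8.76 and 8.44 on the IFNβ arrays (log2 fold change -2.29, standard error 0.47, adjusted p = 0.000873), and Cdca8, a subunit of the chromosomal passenger complex, 12.31 and 11.72 on the untreated arrays and 10.38 and 9.48 on the IFNβ arrays (log2 fold change -2.08, standard error 0.49, adjusted p = 0.00261). Ccnd2, a D-type cyclin of G1, read 5.26 and 6.00 on the untreated arrays and 11.90 and 11.69 on the IFNβ arrays (log2 fold change 6.16, standard error 0.43, adjusted p = 6.42e-09). Ccnd1, another such cyclin, rose with it (log2 fold change 3.78, standard error 0.43, adjusted p = 1.90e-06). Cdkn1a, which encodes the inhibitor p21 (1.47), and Mcm6 (1.55) were the other rises.

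The largest falls concerned genes of several functions. Zfyve28, which encodes a regulator of receptor endocytosis, read 11.59 and 12.68 on the untreated arrays and 6.04 and 6.79 on the IFNβ arrays (log2 fold change -5.72, standard error 0.67, adjusted p = 2.60e-06), and all 4 of its probes fell. Gpr34, a lysophosphatidylserine receptor of myeloid cells, read 10.64 and 11.21 on the untreated arrays and 5.04 and 6.36 on the IFNβ arrays (log2 fold change -5.22, standard error 0.91, adjusted p = 0.000199). Slc40a1 encodes ferroportin, the iron exporter of macrophages, and read 12.43 and 12.81 on the untreated arrays and 8.05 and 7.87 on the IFNβ arrays (log2 fold change -4.66, standard error 0.49, adjusted p = 7.41e-07). For these 3 genes the untreated and IFNβ arrays did not overlap, but the genes were picked for the size of their fall. Frat1, a GSK3-binding protein of the Wnt pathway (-5.13), Klhl24 (-5.06), Nat8l, which makes N-acetylaspartate (-4.99), Lpin1, a phosphatidate phosphatase (-4.92), Zfp704 (-4.80) and Fam214a (-4.47) followed. Klhl24 and Nat8l were above background on 1 of the 2 IFNβ arrays. Peg12, Adam22 and Polr3g were not well above background on either IFNβ array, so the size of their fall is not measured. Taking on each IFNβ array the higher of the probe's own signal and the dimmest signal called above background, they fell at least 39.5-fold, 9.08-fold and 27.7-fold in the signals as deposited. These limits do not hold with normexp background correction, where their log2 fold changes were -3.15, -1.67 and -2.75. Of all genes that fell, 90 were in this state on both IFNβ arrays, and of those that rose, 12 on both untreated arrays.

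**Figure D3:**
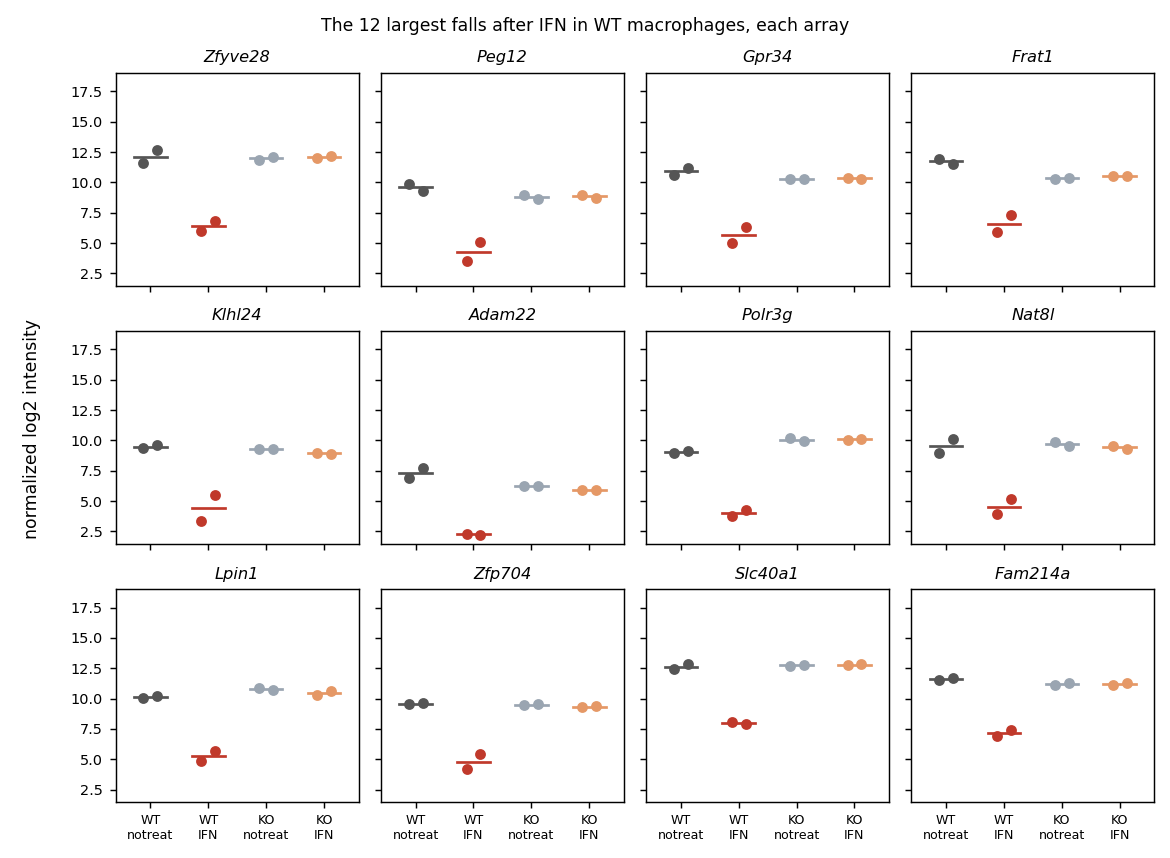
The 12 genes with the largest falls in WT BMDMs, as log2 intensity on each of the 4 WT and 4 Ifnar1-/- arrays, with points for arrays and short lines for group means. The IFNβ-treated WT arrays lie below the untreated ones by 52.8-fold for Zfyve28, the largest, and the treated WT arrays are below every Ifnar1-/- array for each gene.

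Of 27 genes of receptors and signalling for lipids, chemokines and growth factors, 8 (5 without untreated array 1, 5 without IFNβ array 2) rose and 6 fell, or 29.6% higher and 22.2% lower against 13.5% and 22.5% of all genes. Igf1r, the receptor of insulin-like growth factor 1, read 10.14 and 10.46 on the untreated arrays and 5.68 and 6.36 on the IFNβ arrays (log2 fold change -4.28, standard error 0.44, adjusted p = 5.68e-07). Gpr183 senses oxysterols that are made from 25-hydroxycholesterol, the product of Ch25h, and it read 10.11 and 10.18 on the untreated arrays and 5.11 and 7.34 on the IFNβ arrays (log2 fold change -3.92, standard error 0.56, adjusted p = 2.51e-05). Ccrl2, an atypical chemoattractant receptor, rose by 3.97 (adjusted p = 0.00661, and 0.0662 without IFNβ array 2). In Ifnar1-/- BMDMs Ccrl2 read 9.50 and 9.42 without treatment and 9.39 and 14.60 with IFNβ, so that 1 treated array stood far above the other 3.

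The label of the cells as macrophages was checked with marker genes. All 7 macrophage markers were above background on all 4 WT arrays. So were all 6 plasmacytoid dendritic cell markers, and all 6 B cell markers were on both untreated arrays. Of 10 neutrophil markers, 8 to 10 were above background per untreated array. Detection alone therefore did not tell these cell types apart. The macrophage markers had summed linear intensities of 945600 and 929700 without treatment and 789600 and 735900 with IFNβ. Fcgr1, the high-affinity IgG receptor, rose by 2.63 (adjusted p = 0.0117, and 0.0616 without untreated array 1 and 0.0599 without IFNβ array 1). Cd68 (-0.47), Lyz2 (-0.76) and Itgam (-1.30) fell. The Cd68 value had an adjusted p of 0.0728 without untreated array 1, 0.172 without untreated array 2, 0.126 without IFNβ array 1 and 0.0954 without IFNβ array 2, and turned to 0.16 under 75th percentile scaling. Itgam had an adjusted p of 0.0933 without untreated array 1 and 0.0929 without IFNβ array 2, and Lyz2 one of 0.87 under 75th percentile scaling. Csf1r, the M-CSF receptor, read 18.38 and 18.23 on the untreated arrays and 18.05 and 17.95 on the IFNβ arrays and was not called (log2 fold change -0.30, adjusted p = 0.164), with an adjusted p of 0.0354 with the slide as a block and a value of 0.37 under 75th percentile scaling. Of the wider list of 22 genes of macrophage identity, 3 (1 without untreated array 1, 1 without untreated array 2) rose and 7 (3 under 75th percentile scaling, 4 without untreated array 1, 4 without IFNβ array 2) fell, or 13.6% higher and 31.8% lower against 13.5% and 22.5% of all genes. Cx3cr1, the fractalkine receptor, read 13.65 and 14.16 on the untreated arrays and 9.30 and 11.33 on the IFNβ arrays (log2 fold change -3.59, standard error 0.80, adjusted p = 0.00167), and Cebpa, a myeloid transcription factor, 13.41 and 13.74 on the untreated arrays and 10.56 and 10.84 on the IFNβ arrays (log2 fold change -2.88, standard error 0.32, adjusted p = 1.38e-06). The 2 other genes that rose were Cebpb (0.94) and Runx1 (0.74).

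Scavenger and phagocytic receptors rose in 5 (8 under 75th percentile scaling, 2 without untreated array 1, 2 without IFNβ array 2) of 25 cases and fell in 6 (3 under 75th percentile scaling), shares near the background (20% higher and 24% lower against 13.5% and 22.5% of all genes). Fcgr4, an activating receptor for IgG, read 12.12 and 13.03 on the untreated arrays and 16.82 and 16.67 on the IFNβ arrays (log2 fold change 4.17, standard error 0.33, adjusted p = 2.51e-08). Timd4, which binds phosphatidylserine, rose by 3.17 (adjusted p = 0.00730, and 0.0733 without untreated array 1 and 0.0972 without IFNβ array 2), and Clec10a (3.75-fold), Msr1 (2.97-fold) and Axl (2.83-fold) rose as well. Itgb5 had the largest fall of the list (-1.80).

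Markers of other cells that a bone marrow culture could hold were mostly not called. No marker of neutrophils, B cells, NK cells, mast cells and basophils, or fibroblasts and stroma was called among those that passed the filter. Klrk1, an NK cell marker that did not pass it, read 2.24 and 2.47 on the untreated arrays, where it was not above background, and 9.52 and 9.18 on the IFNβ arrays. Clec9a, a dendritic cell marker below the filter, read 3.56 and 3.35 and then 10.61 and 10.60. The 7 NK cell markers, 3 of which passed the filter, summed to a linear intensity of 672 and 486 without treatment and 1533 and 1281 with IFNβ. This sum includes Klrk1. Per array, 5 to 6 of the 7 were above background without treatment and 3 to 4 with IFNβ. Among the others below the filter, Ncr1 (-0.44) and Eomes (-0.25) read lower and Gzmb (0.97) higher. Conventional dendritic cell markers, Clec9a among them, summed to 14340 and 12720, and then 13600 and 10500. The sum over 6 plasmacytoid dendritic cell markers was 132800 and 112800, and then 197900 and 246800. The summed intensity of the 10 neutrophil markers was 18690 and 40320 without treatment and 18260 and 38590 with IFNβ. Lck, a kinase used as a T cell marker, rose (7.77 and 7.50 on the untreated arrays and 13.92 and 12.62 on the IFNβ arrays, log2 fold change 5.63, standard error 0.53, adjusted p = 2.14e-07), while the T cell receptor component Cd3e (0.25) was not called. Bst2 (1.96) and Tcf4 (1.09) among plasmacytoid dendritic cell markers, Zbtb46 (2.76) among dendritic cell markers and Cdh5 (1.41) among endothelial markers rose, and Tfrc (-1.47) among erythroid markers fell. Bst2 is also on the antiviral list. The part of other cell types in the results was not tested. Of 12 genes used as reference genes, 1 (2 under 75th percentile scaling) rose and 2 (0 under 75th percentile scaling) fell, namely Ywhaz (1.47), Gusb (-1.01) and Sdha (-0.71). By share, 8.33% were higher and 16.7% lower, against 13.5% and 22.5% of all genes. Actb (-0.09) and Gapdh (-0.17) were not called, and under 75th percentile scaling they read 0.61 and 0.45.

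**Figure D4:**
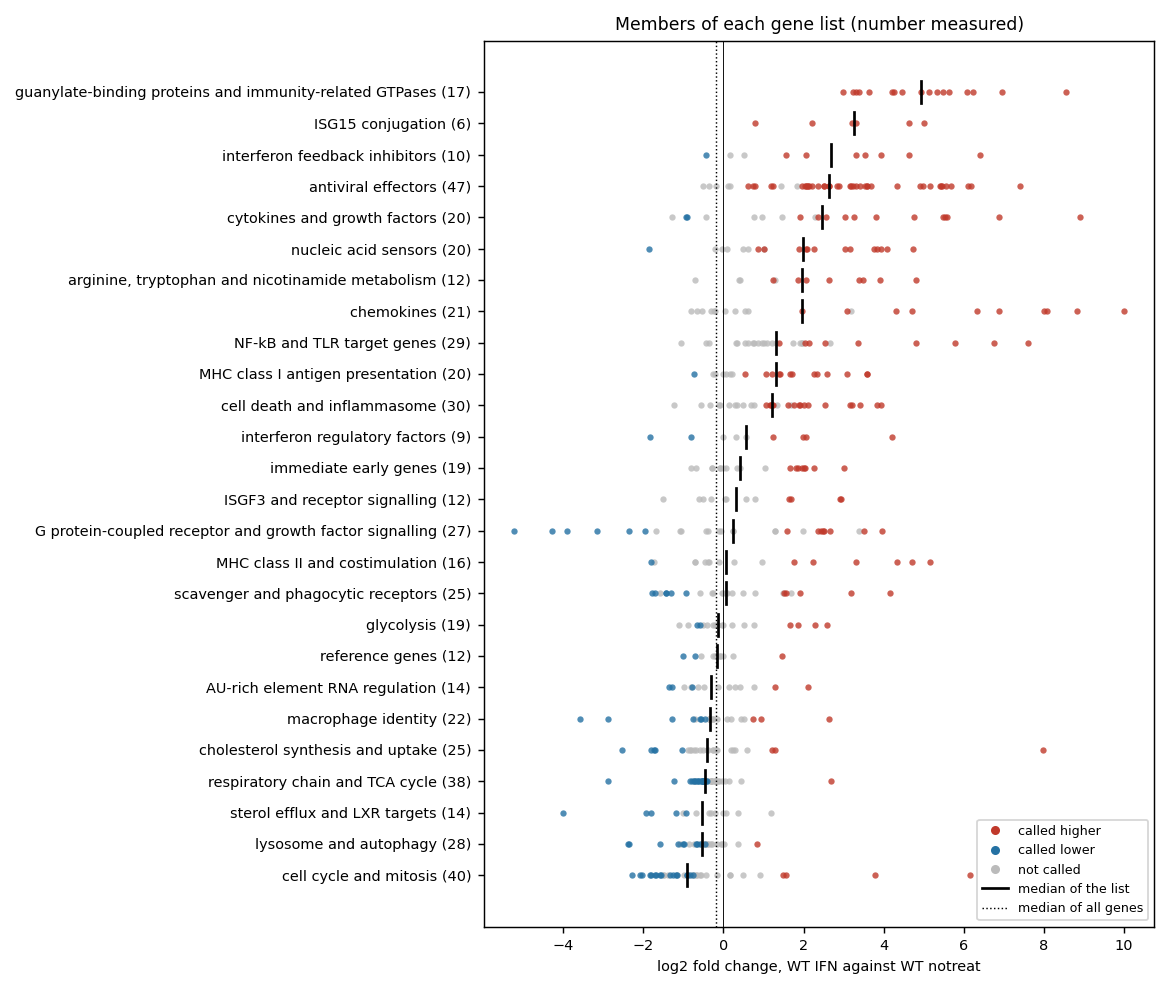
Log2 fold change of each measured member of the gene lists in WT BMDMs, with points coloured by call (higher, lower or not called) and lines for list medians. Guanylate-binding proteins and immunity-related GTPases have the highest median (4.93) and cell cycle genes the lowest (-0.90).

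The probe of Ifnar1 read 14.22 and 14.19 on the untreated arrays and 12.52 and 12.90 on the IFNβ arrays in WT. In Ifnar1-/- BMDMs it read 11.90 and 11.87 without treatment and 11.70 and 11.81 with IFNβ, and whether it lies outside the deleted part of the gene is not given in the sources used here. After IFNβ no gene was called in Ifnar1-/- BMDMs (0% of 16025, limma), with 255 genes at an unadjusted p under 0.05 and a smallest adjusted p of 0.278. Without the filter on dim probes 12 genes were called, and 0 to 2 when 1 array was left out. The receptor-null arrays show how the genes of the WT response read without the receptor. Genes that rose in WT had a median log2 change of 1.58 there and 0.02 in Ifnar1-/- BMDMs, and genes that fell had -1.15 and -0.02. Of the 1625 genes that rose at least 2-fold in WT, 11 (0.677%) were at least 2-fold higher in Ifnar1-/- BMDMs, against 0.618% of all genes, and of the 2187 that fell, 0 were at least 2-fold lower, against 0.93%.

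The difference between the responses was then tested itself. For 1358 genes (8.47%) the response was more positive in WT, and for 1735 (10.8%) more negative. These included 61.4% of the genes that rose in WT and 47.7% of those that fell. Under 75th percentile scaling 1542 genes were more positive and 1151 more negative, or 57.3% positive in place of 43.9%. The total of 3093 was 5485 with the slide as a block and 1930 without untreated Ifnar1-/- array 1. Among genes above background on all 8 arrays, Serpina3g had a difference of 9.26 (standard error 1.12, adjusted p = 1.46e-05) and Zfyve28 one of -5.86 (standard error 0.95, adjusted p = 0.000251). In Ifnar1-/- BMDMs Serpina3g read 5.94 and 6.04 without treatment and 6.06 and 6.08 with IFNβ, and Zfyve28 read 11.87 and 12.13 without treatment and 12.05 and 12.22 with IFNβ. For Ccl5 (3.02, adjusted p = 0.127), Tnf (3.71, adjusted p = 0.110), Zfp36 (1.80, adjusted p = 0.118) and Ifit1 (3.84, adjusted p = 0.129), which rose in WT, the difference did not pass the test. Of the 141 genes named by rule, 130 were called in WT and 103 in the difference. Most of the 141 were named because they were called in WT, so both counts were largely set by that choice. Over all genes, 13.5% rose and 22.5% fell in WT.

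The untreated levels of several interferon-stimulated genes read lower without the receptor. Isg15 read 10.58 and 10.48 without treatment and 10.70 and 10.39 with IFNβ in Ifnar1-/- BMDMs, against 15.33 and 15.02 on the untreated WT arrays. Gbp4 read 2.24 and 2.17 without treatment and 2.56 and 2.25 with IFNβ, and Ifit1 read 2.29 and 2.24 without treatment and 4.42 and 2.39 with IFNβ. This difference between untreated genotypes was not tested. Each slide held 1 genotype, so genotype and slide cannot be told apart in it. More probes were above background on the untreated WT arrays (69.6% and 73.1%) than on the untreated Ifnar1-/- arrays (61.6% and 57.2%).

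**Figure D5:**
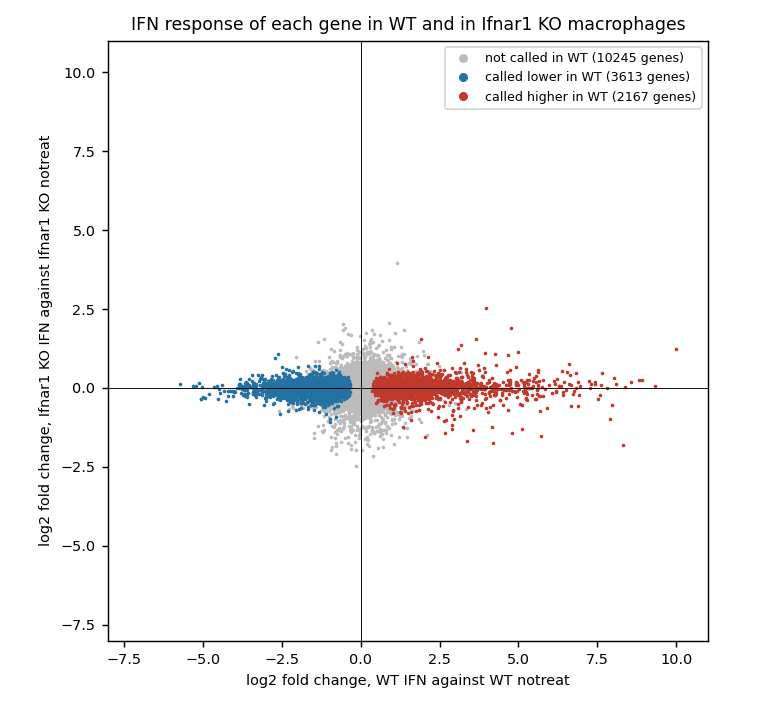
Log2 fold change after IFNβ of each gene in WT BMDMs (horizontal axis) against Ifnar1-/- BMDMs (vertical axis), coloured by the call in WT (higher, lower or not called). The WT axis spans -5.72 to 10.00, while on the Ifnar1-/- axis 248 of 16025 genes lie at a log2 change of at least 1 in either direction, and 0 were called.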

How the data were processed

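Intensities were those of the files the authors deposited, 1 per array, in which Feature Extraction 11.5.1.1 had subtracted local background and spatial trend. They were not normalized between arrays. The log2 table the authors deposited, background-subtracted and quantile-normalized per the study's methods (limma in the submitters' notes), served as an alternative. Probe positions are those of the array design (mm9). Probes were named through RefSeq accessions, then symbols (33153 of 55681 probes). From the intensities, quantile-normalized log2 values were computed in R 4.3.3. Probes above background on at least 16 of 32 arrays were kept, outlier spots were dropped, and each gene was read from its brightest probe, for 16025 genes. limma 3.58.1 (lmFit, eBayes) fitted 1 mean per genotype and treatment over all 32 arrays (16 groups, 16 residual degrees of freedom), with Benjamini-Hochberg adjustment over all genes and calls at an adjusted p under 0.05. The number of arrays, 2 per group, limits the precision.

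Replicate numbers pair arrays of 1 slide: deviations of the 2 numbers correlated at 0.42 between the WT groups compared (lowest among all WT groups 0.32) and at 0.47 in Ifnar1-/- (lowest 0.17). The slide as a block left no named WT call lost. The code was tested on simulated data. Named genes are the 12 largest changes per direction, up to 4 called members per list by size, 32 genes that define the lists and the 5 largest differences per direction. Members named because 5 or fewer moved in a direction, or as uncalled partners, were chosen after their values were seen, and so were the promoters printed. The groups, lists and rule were chosen with earlier results of these data known. Some listed genes are counted but not reported by name here.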

Additional observations from a re-analysis of the deposited data

Results flagged for a closer look

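By the test of the difference, the response to IFNβ was more positive in WT than in Ifnar1-/- BMDMs for 1358 genes (8.47%). It was more negative for 1735 (10.8%). Among these genes were 103 of the 141 named genes, most of which were named because they were called in WT. As log2 differences (WT minus Ifnar1-/-), the most positive were those of Serpina3f (10.12), Serpina3g (9.26), Ddx4 (8.91), Ccl12 (8.77) and Il6 (8.66). The most negative were those of Zfyve28 (-5.86), Peg12 (-5.38), Frat1 (-5.29), Gpr34 (-5.27) and Polr3g (-5.04). Several of these sizes rest on readings that were not above background, so their order is not a measurement. Serpina3f, Ddx4, Ccl12 and Il6 were above background on 0 of the 2 IFNβ-treated Ifnar1-/- arrays, and Peg12 and Polr3g on 0 of the 2 IFNβ-treated WT arrays.

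Probes that no table gave a gene name also responded. Of 10103 such probes above background, 690 (6.83%) rose and 675 (6.68%) fell in WT BMDMs, and 0 were called in Ifnar1-/- BMDMs by limma, with 308 at an unadjusted p under 0.05.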

How the results depend on the processing

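The WT count of 5780 genes was 4125 to 7970 under 11 other settings and 3995 to 5658 when 1 array was left out, where the lone array of a group is assumed to vary like the others. With the replicate block (the slide as a block) it was 7970 and included all 5780 genes, the difference between genotypes rose from 3093 to 5485, and Ifnar1-/- stayed at 0. The block raised Irf9, Ripk1, Ripk3 and Csf1r past the threshold and lost none of the 130 named calls. The Ifnar1-/- count was 1 with normexp background correction, 12 without the filter on dim probes, 1 in the deposited table and 0 to 2 with 1 array left out. The difference count was 1930 to 2575 with 1 array left out, lowest without untreated Ifnar1-/- array 1. The 75th percentile shift turned Actb (0.61), Cd68 (0.16), Csf1r (0.37), Gapdh (0.45) and Ifnar2 (0.029) positive. Actb ranged from -0.26 to 0.080 with 1 array left out (positive without untreated array 1), and Cxcl1 from -1.02 to 1.57 (negative without IFNβ array 2). Of these only Cd68 was called. Single WT arrays left out lost 8 to 13 of the 130 named calls, and the fit of the 4 WT arrays alone lost 10. The causes were not tested. With 2 arrays per group, and 47.9% to 73.1% of probes above background, genes near background give bounds at best.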

Other observations

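The filter on dim probes, which asked for signal on 16 of the 32 arrays, also left out genes with signal in few groups. With a filter on the WT and Ifnar1-/- groups with and without IFNβ, 1884 more genes were tested. A gene could pass that filter through the group where it is high, so no count of calls among them is given. The genes named here were picked after their values were seen. Angpt1, which encodes the TIE2 ligand angiopoietin 1, read 2.17 and 2.69 on the untreated arrays, where it was not above background, and 11.16 and 11.58 on the IFNβ arrays, at least 314-fold higher. Klrk1, which encodes the activating receptor NKG2D and is among the NK cell markers, was at least 77.6-fold higher. Lipg, an endothelial lipase, read 2.29 and 2.46 and then 8.46 and 8.58, at least 43.6-fold higher. These limits use the dimmest signal called above background as a floor, in the signals as deposited. They were not checked with normexp background correction. Clec9a, which encodes a receptor for dead cells and is among the dendritic cell markers, was above background on both untreated arrays and 142-fold higher with IFNβ. In Ifnar1-/- BMDMs these 4 genes read between 2.21 and 5.83 on all arrays.

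Several cytokines and enzymes of the lists fell below the filter and entered no list's count. Csf2 read 2.58 and 2.94 on the untreated and 2.43 and 2.72 on the IFNβ arrays, and Il12b 2.72 and 2.96 against 2.74 and 4.06. Ido1, which degrades tryptophan, read 2.29 and 2.33 against 5.00 and 6.63 and was above background on the IFNβ arrays alone.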
